A study of Mus musculus with 7 samples.

Results

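The 39 genes described here are members of the cell cycle and DNA replication programme, with known roles in S phase entry, replication and mitosis. They were chosen with earlier results of these data known, so their counts beside all genes describe the list and do not test it. Of the 39 genes, 35 had a row in the expression table, which held 13097 entries with 12092 distinct symbols. All 35 passed a filter on low values, together with 12063 genes in all. Cdt1, Gins2, Top2a and Foxm1 were not analysed here. The measured members were divided into 12 of 14 listed G1/S and replication genes (Ccne, Mcm, Cdc6, Gins and Rrm genes), all 12 listed G2/M genes (Ccnb, Aurk, Plk1, Bub1, Bub1b, Cenp and Kif genes) and 11 of 13 other genes. The RNA came from double-positive (DP) thymocytes, the stage of T cell development that carries both coreceptors, sorted as TCRγδ- CD4+ CD8+ cells from mice 4 to 5 weeks old. The mice were littermates on a hybrid B6/129 background, and each library came from 1 mouse. LP mice carried floxed Id2 and Id3 alleles deleted by LckCre (Id2 f/f Id3 f/f LckCre+) together with germline loss of pTα (pTα-/-), and gave 2 libraries. L-DKO mice carried the same Id2 and Id3 alleles and LckCre with pTα intact, and gave 2 libraries. The pTα-/- group with intact Id genes (pTαKO) and the wild-type group (WT) gave 1 library each. The design asked how DP thymocytes differ when the Id proteins and the pre-TCR are lost singly or together. LckCre is driven by a promoter of the T cell kinase Lck, so Id2 and Id3 are deleted within the T lineage and not in other cells of the thymus.

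As background, a cell commits to division when cyclin E activates its kinase partner and E2F transcription factors switch on the genes for replication. The MCM helicase is loaded on DNA in G1 and fired in S phase, and cyclin B with CDK1 and the Aurora and Polo kinases then drive mitosis. In the thymus, signals of the pre-TCR, made of the TCRβ chain and pTα, set off a burst of division as cells pass into the DP stage, and the small DP cells that follow rest and rearrange the TCRα locus. Id2 and Id3 bind and inhibit E proteins, the transcription factors that restrain division at the transition controlled by the pre-TCR.

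Values are given as log2(FPKM + 1), where FPKM counts the fragments of a gene, scaled to the length of its exons and to the mapped fragments of the library, so levels can be set side by side between genes. Differences are on the same scale with the standard error (SE) of a limma fit over the 6 libraries. The spread was estimated from the LP and L-DKO pairs, and WT and pTαKO were assumed to vary alike. An adjusted p under 0.05 over all genes tested was required for a call. Depth was not given, so no counting interval could be set.

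The libraries were first checked against their labels. Id3 stood at 1.96 and 3.18 in the LP pair against 1.91 and 3.32 in the L-DKO pair, with 5.25 in the library labelled pTαKO and 6.22 in WT, and Id2 stood at 1.92 and 0.99 in the LP pair against 0.998 and 0.24 in the L-DKO pair, with 1.87 in the library labelled pTαKO and 3.56 in WT. Id2 in LP 1 was thus no lower than in the library labelled pTαKO, whose Id genes are labelled intact, and Id3 remained detectable in all 4 libraries labelled as lacking it. Ptcra, the gene for pTα, was not below its WT level where the labels state its loss, with 5.35 and 5.87 in the LP pair against 6.35 and 6.62 in the L-DKO pair, 5.75 in the library labelled pTαKO and 5.06 in WT. Which part of Ptcra the null allele lacks is not given in the sources used here, so this level does not check the labels, and LP and pTαKO are used as the labels give them. The DP markers were high throughout, and the summed level of 7 measured (Cd4, Cd8a, Cd8b1, Rag2, Cd3e, Cd1d1 and Dntt) lay between 3506 and 3975 FPKM in the 6 libraries. Markers of macrophages and other myeloid cells (7 of 8 measured) summed to 62.4 and 76.4 FPKM in the LP pair against 28.7 and 24.9 FPKM in the L-DKO pair, 195 FPKM in the library labelled pTαKO and 22.05 FPKM in WT. Markers of the earlier double-negative (DN) stage (5 of 6 measured: Il2ra, Kit, Hes1, Notch1 and Cd44) summed to 31.7 and 36.4 FPKM in the LP pair against 19.1 and 10.96 FPKM in the L-DKO pair, 65.5 FPKM in the library labelled pTαKO and 7.79 FPKM in WT. Erythroid genes (4 of 7 measured, led by Hba-a1) summed to 3014 and 1730 FPKM in the LP pair against 709 and 3324 FPKM in the L-DKO pair, 2627 FPKM in the library labelled pTαKO and 730 FPKM in WT. The 20 most abundant entries held between 30.0% (WT) and 72.6% (LP 2) of all FPKM.

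As a group, cell cycle genes were lower in LP than L-DKO, without any single gene passing the test. The mean of LP lay below that of L-DKO in 33 of 35 members, against 49.9% of all genes tested, and the median difference was -0.62, against 0.00 over all genes. As a ratio of FPKM + 1, taken from the log2 differences, the median member stood at 65.0% of its L-DKO level. The range was 49.3% (Ccne1) to 130% (Cenpf), and these are not ratios of FPKM itself. Both LP libraries lay below both L-DKO libraries in 27 of 35 members (22.2% of all genes) and above both in 1, Cenpf (22.3% of all genes). Both LP libraries lay below all 4 other libraries in 24 members, against 8.1% of all genes. By limma 0 of 35 members were called (0.0166% of all genes), with adjusted p from 0.295 to 0.78. At an unadjusted p under 0.05, 13 members were lower and 0 higher, against 4.94% and 6.15% of all genes. The median difference shrank to -0.42 without L-DKO 2 and to -0.43 without LP 1, so its size rested in part on single libraries. In these bulk samples, fewer cycling cells and less of these RNAs per cell cannot be told apart. In 7 of 7 measured, myeloid markers were higher in LP than L-DKO, by a median of 1.19. Of the 5 DN markers, 4 were higher in LP than L-DKO, with a median of 0.53 over the 5, led by Hes1 (2.61 ± 0.49, limma adjusted p = 0.283) and Notch1 (2.38 ± 0.38, limma adjusted p = 0.235), which were also high in the library labelled pTαKO. The part of the myeloid and DN markers in the difference was not tested.

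**Figure D1:**
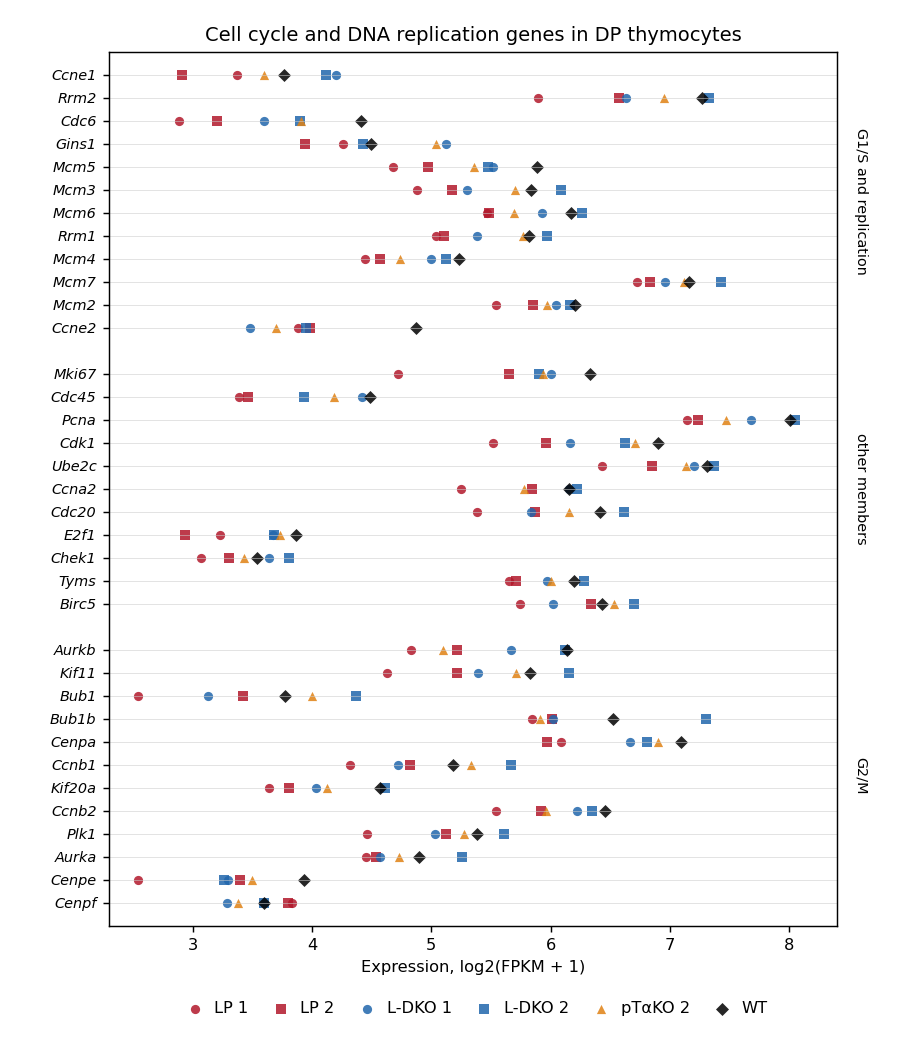
Expression of the 35 measured members, log2(FPKM + 1), in the 2 LP (red), 2 L-DKO (blue), 1 pTαKO (orange) and 1 WT (black) libraries, grouped by class and ordered by the LP minus L-DKO difference. The red points are the leftmost pair in 24 of 35 rows.

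Cyclins of the G1/S step differed from one another. Ccne1 encodes cyclin E1, which drives entry into S phase with CDK2, and stood at 3.37 and 2.91 in the LP pair against 4.20 and 4.12 in the L-DKO pair, with 3.60 in the library labelled pTαKO and 3.76 in WT. The LP values were the lowest and the L-DKO values the highest, with a difference of -1.02 ± 0.28 (SE) that did not pass (limma adjusted p = 0.352). Ccne2, for the related cyclin E2, stood at 3.88 and 3.98 in the LP pair against 3.48 and 3.95 in the L-DKO pair, with 3.70 in the library labelled pTαKO and 4.87 in WT. WT was highest and the other 5 libraries overlapped, and Ccne2 was the single G1/S member above 0, at 0.22 ± 0.26 (limma adjusted p = 0.778). The symbol had a second, lower row, described in the closing section.

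The licensing factors, which load and form the replicative helicase, behaved alike. Cdc6, which helps to load the helicase at origins, stood at 2.88 and 3.20 in the LP pair against 3.59 and 3.90 in the L-DKO pair, with 3.91 in the library labelled pTαKO and 4.41 in WT. LP was lowest, WT highest and the pair of groups did not overlap, with a difference of -0.70 ± 0.27 (limma adjusted p = 0.453). Mcm2 to Mcm7 encode the 6 subunits of the helicase. In each of the 6, both LP libraries lay below the 4 other libraries, and LP 1 was the lowest of all. Their differences ran from -0.67 (Mcm5) to -0.41 (Mcm2). Mcm5 stood at 4.68 and 4.97 in the LP pair against 5.51 and 5.48 in the L-DKO pair, with 5.35 in the library labelled pTαKO and 5.88 in WT. This gave -0.67 ± 0.18 (limma adjusted p = 0.345). Mcm2 stood at 5.54 and 5.85 in the LP pair against 6.04 and 6.16 in the L-DKO pair, with 5.97 in the library labelled pTαKO and 6.20 in WT. Its groups were also apart, but by less, at -0.41 ± 0.17 (limma adjusted p = 0.487). Mcm3, Mcm4, Mcm6 and Mcm7 lay between these, at -0.66, -0.56, -0.62 and -0.41. The summed level of the 6 subunits was 267 and 301 FPKM in the LP pair against 362 and 461 FPKM in the L-DKO pair, 367 FPKM in the library labelled pTαKO and 436 FPKM in WT.

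Promoters of helicase genes are shown because E2F factors are known to drive this family, and genes with and without the E2F letters are printed. The 180 bases before the RefSeq gene are printed 5′ to 3′ on the gene's strand, and capitals mark the E2F letters TTTCCCGC, TTTCGCGC, TTTGCCGC or TTTGGCGC and the CCAAT letters, on either strand. In Cdc6 and Mcm7 the start in the RefSeq promoter table lies 442 and 228 bases inside the annotated gene. They are not printed, since fewer than 180 of the 250 bases before that start lie before the gene.
Mcm2 (GRCm38.p6, chr6:88898781-88898960, minus strand): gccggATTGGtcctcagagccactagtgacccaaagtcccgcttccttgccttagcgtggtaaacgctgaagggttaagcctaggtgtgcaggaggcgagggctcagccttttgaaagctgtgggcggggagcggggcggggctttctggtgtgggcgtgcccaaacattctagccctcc
Mcm3 (GRCm38.p6, chr1:20820313-20820492, minus strand): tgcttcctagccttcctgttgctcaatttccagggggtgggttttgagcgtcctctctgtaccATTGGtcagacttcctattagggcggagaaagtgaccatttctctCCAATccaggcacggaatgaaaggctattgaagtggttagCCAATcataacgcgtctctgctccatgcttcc
Mcm5 (GRCm38.p6, chr8:75109288-75109467, plus strand): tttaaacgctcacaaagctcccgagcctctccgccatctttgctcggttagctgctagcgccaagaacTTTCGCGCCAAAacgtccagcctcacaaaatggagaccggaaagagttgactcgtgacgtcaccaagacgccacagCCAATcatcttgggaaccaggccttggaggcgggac
Mcm6 (GRCm38.p6, chr1:128359706-128359885, minus strand): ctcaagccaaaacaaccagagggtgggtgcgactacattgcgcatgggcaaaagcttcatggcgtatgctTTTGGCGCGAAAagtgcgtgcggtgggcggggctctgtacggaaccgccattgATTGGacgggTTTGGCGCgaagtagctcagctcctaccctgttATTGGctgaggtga

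Mcm2 and Mcm3 held CCAAT and no E2F letters. In Mcm5 the E2F letters occurred 2 times and in Mcm6 3 times, where matches on opposite strands overlap in the runs of capitals that begin TTTCGCGC and TTTGGCGC. RefSeq gave a promoter for 31 of 39 listed members, without Ccne2, Mcm4, Gins1, Gins2, Ccna2, Aurkb, Kif20a and Foxm1. Over the 250 bases before the start in that table (the first listed where a gene had 2), the E2F letters were found in 4 of 10 G1/S members (Cdc6, Mcm5, Mcm6 and Mcm7), in 0 of 10 G2/M members and in 1 of 11 others (Cdk1), against 1.91% of 27025 genes. Ccne1, with the largest difference, held none of these letters. For Cdc6, Mcm7, Aurka and E2f1 most or all of this window lay inside the annotated gene. These matches describe letters and not sites in use.

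Enzymes that supply nucleotides were also lower in LP. Rrm2 encodes the S phase subunit of ribonucleotide reductase and stood at 5.90 and 6.57 in the LP pair against 6.63 and 7.32 in the L-DKO pair, with 6.95 in the library labelled pTαKO and 7.27 in WT. LP 2 lay just under L-DKO 1, and the difference was -0.74 ± 0.33 (limma adjusted p = 0.512). Rrm1, the partner subunit, differed by -0.60 ± 0.24 and did not overlap. Tyms, thymidylate synthase, stood at 5.65 and 5.71 in the LP pair against 5.97 and 6.28 in the L-DKO pair, with 5.998 in the library labelled pTαKO and 6.19 in WT. LP was below the other libraries, by -0.44 ± 0.17 against L-DKO (limma adjusted p = 0.444).

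The genes of 3 proteins of the replication fork were all lower in LP than in L-DKO. Pcna, the sliding clamp of DNA polymerases and the most abundant member, stood at 7.14 and 7.23 in the LP pair against 7.68 and 8.05 in the L-DKO pair, with 7.47 in the library labelled pTαKO and 8.003 in WT. LP was lowest and the library labelled pTαKO came next, with an LP minus L-DKO difference of -0.68 ± 0.17 (limma adjusted p = 0.342). Cdc45, which joins the MCM ring to form the active helicase, stood at 3.39 and 3.46 in the LP pair against 4.42 and 3.94 in the L-DKO pair, with 4.19 in the library labelled pTαKO and 4.48 in WT. This was the widest gap of the role, -0.75 ± 0.26 (limma adjusted p = 0.421). Gins1, a subunit of the GINS complex of the same helicase, stood at 4.26 and 3.94 in the LP pair against 5.12 and 4.43 in the L-DKO pair, with 5.03 in the library labelled pTαKO and 4.50 in WT. LP was lowest here too (-0.68 ± 0.30). In Gins1, as in Cdc45, L-DKO 1 and not L-DKO 2 was the higher of its pair. Unlike in Pcna and Cdc45, the library labelled pTαKO lay above WT in Gins1.

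Regulators of S phase had low levels. E2f1, an E2F activator, stood at 3.22 and 2.93 in the LP pair against 3.68 and 3.68 in the L-DKO pair, with 3.73 in the library labelled pTαKO and 3.86 in WT. The 4 libraries outside LP lay within a narrow band above it, and the difference was -0.60 ± 0.26 (limma adjusted p = 0.50). Chek1, the checkpoint kinase of stalled forks, stood at 3.07 and 3.30 in the LP pair against 3.64 and 3.80 in the L-DKO pair, with 3.43 in the library labelled pTαKO and 3.54 in WT. It differed by -0.54 ± 0.26 with no overlap (limma adjusted p = 0.539).

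Members that mark G2 and mitosis were lower in LP by a median close to that of the G1/S members, but with more overlap. Ccnb2, a B-type cyclin, stood at 5.54 and 5.92 in the LP pair against 6.22 and 6.35 in the L-DKO pair, with 5.96 in the library labelled pTαKO and 6.45 in WT, a difference of -0.55 ± 0.18 (limma adjusted p = 0.412). Ccnb1, the main mitotic cyclin, differed by -0.62 ± 0.38, and its LP 2 value of 4.82 lay above the L-DKO 1 value of 4.72. Cdk1, the kinase that both activate, stood at 5.52 and 5.96 in the LP pair against 6.16 and 6.62 in the L-DKO pair, with 6.71 in the library labelled pTαKO and 6.90 in WT. LP was lowest and the 2 libraries labelled with intact Id genes were highest, with an LP minus L-DKO difference of -0.65 ± 0.24 (limma adjusted p = 0.434). Ccna2, the cyclin of S and G2, differed by -0.64 ± 0.23 without overlap.

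The mitotic kinases were led by Aurkb, the kinase of the chromosomal passenger complex. It stood at 4.83 and 5.22 in the LP pair against 5.66 and 6.12 in the L-DKO pair, with 5.10 in the library labelled pTαKO and 6.14 in WT. The 3 libraries labelled as lacking pTα were the 3 lowest, and LP differed from L-DKO by -0.87 ± 0.24 (limma adjusted p = 0.355). Aurka, the centrosomal Aurora kinase, stood at 4.45 and 4.54 in the LP pair against 4.57 and 5.26 in the L-DKO pair, with 4.73 in the library labelled pTαKO and 4.90 in WT. LP and L-DKO 1 nearly met, and the difference was the smallest of the role, -0.42 ± 0.28 (limma adjusted p = 0.624). Plk1, Bub1 and Bub1b, a mitotic kinase and a pair of spindle checkpoint proteins, differed by -0.53, -0.76 and -0.73 with SE of 0.32 to 0.54. The L-DKO libraries alone spanned 5.03 to 5.60 in Plk1, 3.13 to 4.37 in Bub1 and 6.02 to 7.30 in Bub1b. Each span was wider than the difference between the groups. Plk1 and Bub1 overlapped between LP and L-DKO, and in Bub1b LP 2 (6.01) lay just under L-DKO 1 (6.02).

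Kinetochore genes went both ways. Cenpa encodes the centromeric histone H3 variant and had the smallest p of all members. It stood at 6.09 and 5.97 in the LP pair against 6.66 and 6.80 in the L-DKO pair, with 6.90 in the library labelled pTαKO and 7.09 in WT. LP was 0.58 below the nearest L-DKO library, and the difference was -0.71 ± 0.14 (limma adjusted p = 0.295). Cenpf, a large protein of the outer kinetochore, stood at 3.83 and 3.80 in the LP pair against 3.29 and 3.59 in the L-DKO pair, with 3.38 in the library labelled pTαKO and 3.60 in WT. Here LP was highest, by 0.38 ± 0.26 over L-DKO (limma adjusted p = 0.632). Cenpe, the kinetochore motor, stood at 2.54 and 3.40 in the LP pair against 3.30 and 3.26 in the L-DKO pair, with 3.50 in the library labelled pTαKO and 3.93 in WT. LP 1 alone was low, and the difference was -0.31 ± 0.38 (limma adjusted p = 0.78). Birc5 (survivin), which acts with Aurkb, overlapped as well, at -0.32 ± 0.32.

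The motors of the spindle, Ube2c, Cdc20 and Mki67 also had lower means in LP than in L-DKO. Kif11, the motor that separates the spindle poles, stood at 4.63 and 5.22 in the LP pair against 5.39 and 6.16 in the L-DKO pair, with 5.71 in the library labelled pTαKO and 5.82 in WT. The groups were apart by -0.85 ± 0.34 (limma adjusted p = 0.464). Kif20a, a motor of cytokinesis, stood at 3.64 and 3.81 in the LP pair against 4.04 and 4.61 in the L-DKO pair, with 4.13 in the library labelled pTαKO and 4.57 in WT, a difference of -0.60 ± 0.28 (limma adjusted p = 0.523). LP was again the lowest pair. Ube2c, the ubiquitin-conjugating enzyme of the anaphase-promoting complex (APC/C), stood at 6.43 and 6.85 in the LP pair against 7.20 and 7.37 in the L-DKO pair, with 7.13 in the library labelled pTαKO and 7.31 in WT. It differed by -0.65 ± 0.19 (limma adjusted p = 0.377). Cdc20, which activates the APC/C, stood at 5.38 and 5.87 in the LP pair against 5.84 and 6.61 in the L-DKO pair, with 6.15 in the library labelled pTαKO and 6.42 in WT. Its LP 2 and L-DKO 1 values overlapped, and the difference was -0.60 ± 0.32 (limma adjusted p = 0.56). Mki67, the proliferation marker Ki-67, stood at 4.72 and 5.65 in the LP pair against 6.001 and 5.903 in the L-DKO pair, with 5.93 in the library labelled pTαKO and 6.33 in WT. LP 1 stood far below the rest, and the difference was -0.77 ± 0.33 (limma adjusted p = 0.495).

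**Figure D2:**
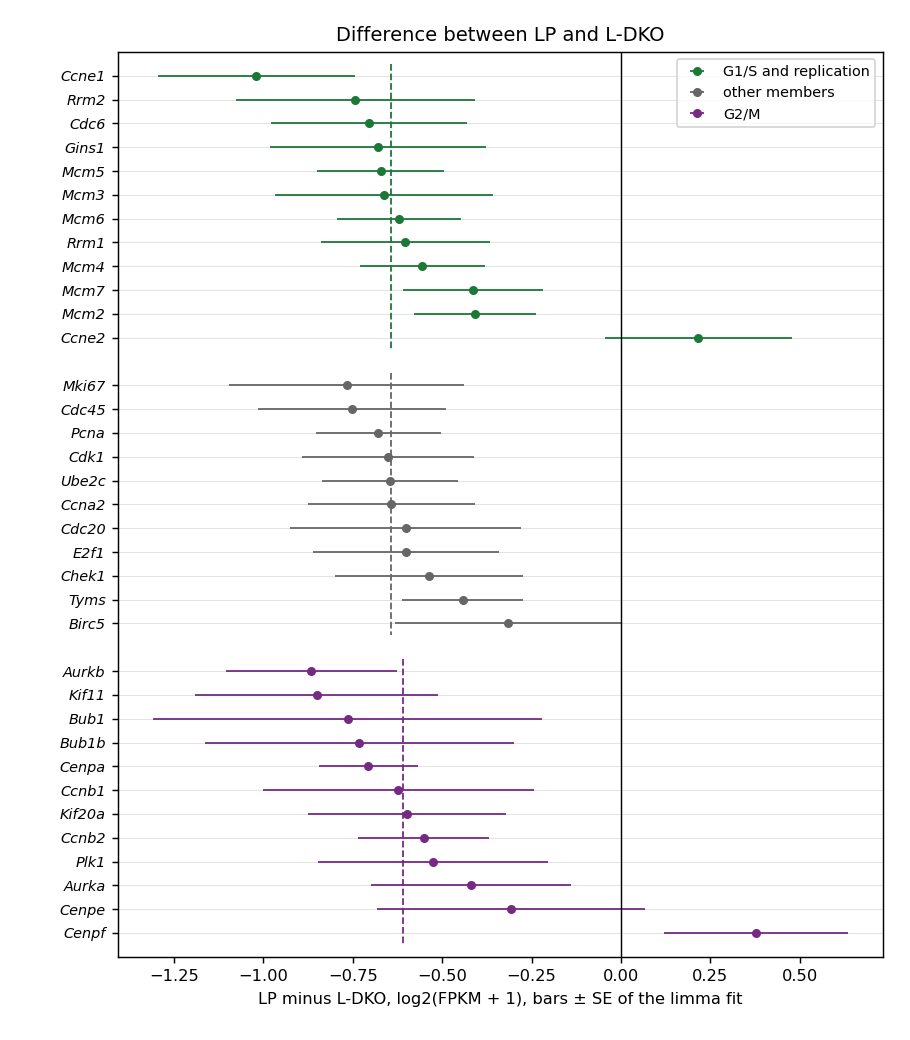
LP minus L-DKO difference of each measured member on log2(FPKM + 1), with bars of 1 SE from the limma fit, and a dashed line at the median of each class. All points but Ccne2 and Cenpf lie left of 0, and the 3 medians lie between -0.64 and -0.61.

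Promoters of G2/M genes are printed because every G2/M member with a RefSeq promoter held the CCAAT letters, whether its level was lower (Ccnb2, Cenpa, Kif11) or higher (Cenpf) in LP. Capitals mark the same letters as above.
Ccnb2 (GRCm38.p6, chr9:70421555-70421734, minus strand): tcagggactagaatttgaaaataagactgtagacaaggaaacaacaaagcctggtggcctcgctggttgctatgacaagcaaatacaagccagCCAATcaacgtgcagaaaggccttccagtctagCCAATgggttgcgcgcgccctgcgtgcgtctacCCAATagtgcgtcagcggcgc
Cenpa (GRCm38.p6, chr5:30666697-30666876, plus strand): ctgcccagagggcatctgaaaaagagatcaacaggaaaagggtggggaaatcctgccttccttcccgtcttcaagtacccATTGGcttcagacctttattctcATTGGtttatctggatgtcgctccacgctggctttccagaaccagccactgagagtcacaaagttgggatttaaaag
Kif11 (GRCm38.p6, chr19:37376202-37376381, plus strand): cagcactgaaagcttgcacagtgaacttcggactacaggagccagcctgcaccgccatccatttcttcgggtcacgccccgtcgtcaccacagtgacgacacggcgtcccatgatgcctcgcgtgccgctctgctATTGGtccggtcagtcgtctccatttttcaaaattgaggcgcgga
Cenpf (GRCm38.p6, chr1:189688108-189688287, minus strand): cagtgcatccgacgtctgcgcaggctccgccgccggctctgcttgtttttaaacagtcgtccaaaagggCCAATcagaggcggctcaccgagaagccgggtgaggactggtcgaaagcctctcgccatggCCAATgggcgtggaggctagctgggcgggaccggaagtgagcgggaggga

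The CCAAT letters, which the factor NF-Y binds, were found within 250 bases before the start in 10 of 10 G2/M members, 7 of 10 G1/S members and 7 of 11 others, against 34.5% of 27025 genes. The cell cycle homology letters TTTGAA were found in 2 of 10 G2/M, 1 of 10 G1/S and 6 of 11 other members, against 16.3% of all genes. The E-box letters CAGCTG and CAGGTG, which E proteins can bind, were found in 1 of 10 G2/M (Cenpe), 0 of 10 G1/S and 2 of 11 other members (Birc5 and Tyms), against 27.4% of all genes. In the printed stretch Cenpf held 2 CCAAT matches, as did Cenpa. Letters found in every G2/M member with a promoter cannot separate these members by direction, and their part in the differences was not tested. No match says only that the letters are absent from this window.

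Set side by side, the G1/S and replication members and the G2/M members differed little in size but more in spread. The median LP minus L-DKO difference was -0.64 for the G1/S members, -0.61 for the G2/M members and -0.64 for the other members. The G1/S median lay 0.03 below the G2/M median. For scale, the gap between the median levels of these classes within a library varied between replicates with an SD of 0.23. Both LP libraries lay below the 4 other libraries in 11 of 12 G1/S members, 5 of 12 G2/M members and 8 of 11 other members. Over all genes this share was 8.1%. At an unadjusted p under 0.05, 4 G1/S, 3 G2/M and 6 other members were lower (4.94% of all genes). A single library moved the medians: without L-DKO 2 they were -0.42 (G1/S) and -0.27 (G2/M), and without LP 1 they were -0.52 and -0.37.

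The replicates of each genotype were not alike for these genes, and the G2/M members differed more within a pair than the G1/S members. LP 2 lay above LP 1 in 30 of 35 members (50.1% of all genes), by a median of 0.29 over all members, 0.12 for G1/S and 0.38 for G2/M. L-DKO 2 lay above L-DKO 1 in 29 of 35 members (52.8% of all genes), by a median of 0.33 over all members, 0.32 for G1/S and 0.57 for G2/M. Over all genes tested these medians were 0.00 and 0.03. The lowest value of a member was in LP 1 for 29 genes and in LP 2 for 4, and the highest was in L-DKO 2 for 19, in WT for 13 and in L-DKO 1 for 2. Over all 12063 genes, the lowest value was in LP 1 for 2013 and in LP 2 for 1774. The highest was in L-DKO 2 for 2719 of these, in WT for 1278 and in L-DKO 1 for 1840. Relative to each gene's own mean over the 6 libraries, the G2/M median was -0.61 and -0.20 in the LP pair against -0.11 and 0.50 in the L-DKO pair, 0.06 in the library labelled pTαKO and 0.29 in WT. For the G1/S members it was -0.42 and -0.33 in the LP pair against 0.01 and 0.33 in the L-DKO pair, 0.06 in the library labelled pTαKO and 0.34 in WT. LP was thus the lowest pair in both classes, with L-DKO 1 next to LP 2 among the G2/M members. The erythroid genes were also higher in L-DKO 2 than in L-DKO 1, by a median of 2.16, but lower in LP 2 than in LP 1, with a median difference of -0.81, and their part in these gaps was not tested.

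**Figure D3:**
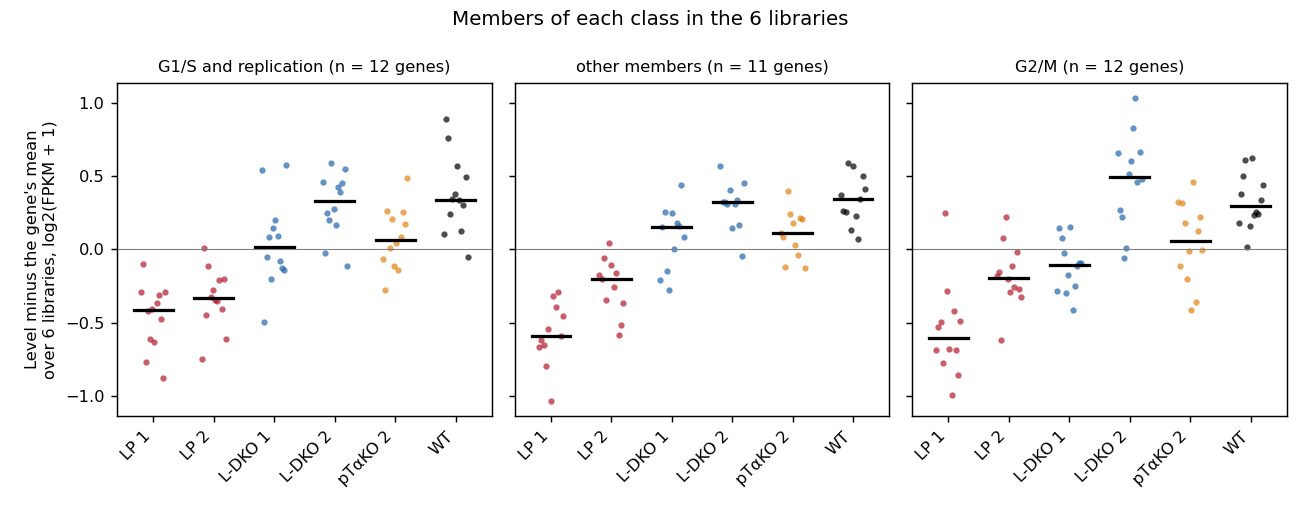
Level of each member minus its own mean over the 6 libraries, log2(FPKM + 1), by class and library, with the class median as a bar. Both LP medians lie below 0 in each class, and the medians of L-DKO 1 and L-DKO 2 lie further apart among the G2/M genes (-0.11 and 0.50) than among the G1/S genes (0.01 and 0.33).

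Against WT, the members were lower in LP by more than in L-DKO. The comparisons that follow share libraries with the one above, so they are not independent of it. LP lay below WT in 34 of 35 members (47.4% of all genes) with a median of -0.74, or -0.73 for G1/S and -0.76 for G2/M. Both LP libraries were below the WT library in 34 members, against 31.7% of all genes. Cdc6 differed most, by -1.37 ± 0.33, followed by Cdk1 (-1.16 ± 0.30), Mki67 (-1.14), Aurkb (-1.11 ± 0.29), Mcm5 (-1.06 ± 0.22) and Cenpa (-1.06 ± 0.17). By limma 0 members were called (0.058% of all genes) and the smallest adjusted p was 0.276 (Cenpa), with 13 lower at an unadjusted p under 0.05 (2.35% of all genes). L-DKO lay below WT in 27 of 35 members (47.6% of all genes), with a median of only -0.14. The median was 0.06 without L-DKO 1 and -0.36 without L-DKO 2, so its sign rested on which L-DKO library was used. By limma 0 members were called (0.0414% of all genes), and 1 was lower at an unadjusted p under 0.05 (1.93% of all genes), Ccne2 at -1.15 ± 0.32. Ccne1 was the member furthest above 0, by 0.40 ± 0.34.

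Against the library labelled pTαKO, LP was lower in 32 of 35 members (50.5% of all genes), by a median of -0.49. The median was -0.29 without LP 1, which moves it by more than 1.5 times, and -0.68 without LP 2. Cenpa (-0.87 ± 0.17), Cdk1 (-0.97 ± 0.30) and Cdc6 (-0.87 ± 0.33) had unadjusted p under 0.05, 3 members in all (3.29% of all genes), and 0 were called by limma (0.0995% of all genes, smallest adjusted p = 0.472). Aurkb, by contrast, differed by -0.07 ± 0.29. The library labelled pTαKO itself lay below WT in 31 of 35 members (47.8% of all genes), by a median of -0.22, but this sets 1 library against 1 and was not tested. At least 2-fold lower there were 2 members, Ccne2 (-1.17) and Aurkb (-1.04), against 4.63% of all genes. Gins1 (0.54), Bub1 (0.23), Ccnb1 (0.15) and Birc5 (0.10) lay above WT.

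Averaged over both Id backgrounds, libraries labelled as lacking pTα were lower in 34 of 35 members (48.5% of all genes), by a median of -0.43. All 3 such libraries lay below the 3 labelled with intact pTα in 12 members (8.8% of all genes), namely Ccne1, Mcm2, Mcm4, Mcm5, Mcm6, Ccnb2, Aurkb, Bub1b, Ube2c, Ccna2, Chek1 and Pcna. Ordered by p, the first was Aurkb at -0.95 ± 0.21 (limma adjusted p = 0.255), followed by Pcna at -0.61 ± 0.15 (limma adjusted p = 0.297) and Mcm5 at -0.60 ± 0.15 (limma adjusted p = 0.308). By size Bub1b, at -0.67 ± 0.37 (limma adjusted p = 0.604), came after Aurkb. By limma 0 members were called (0.116% of all genes), and 7 were lower at an unadjusted p under 0.05 (4.19% of all genes). Averaged over both pTα backgrounds, libraries labelled as lacking Id2 and Id3 were lower in 33 of 35 members (49.2% of all genes), by a median of -0.32 (-0.17 without L-DKO 1). All 4 of these lay below the library labelled pTαKO and WT in 5 members (5.87% of all genes), Cdc6 (-0.76 ± 0.24), Cdk1 (-0.74 ± 0.21), Cenpa (-0.61 ± 0.12), Cenpe and E2f1. By limma 0 were called (0.0829% of all genes, smallest adjusted p = 0.486), with 4 lower at an unadjusted p under 0.05 (3.22% of all genes).

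The interaction, LP minus the library labelled pTαKO less L-DKO minus WT, was below 0 in 31 of 35 members (52.4% of all genes), with a median of -0.37. By limma 0 were called (0.0497% of all genes, smallest adjusted p = 0.996). At an unadjusted p under 0.05, 0 members were lower (2.5% of all genes) and 1 was higher (1.96% of all genes), Ccne2 at 1.38 ± 0.45. Gins1 had the lowest value, -1.22 ± 0.52, and Ccne1 stood at -0.85 ± 0.48. The median was -0.12 without L-DKO 2 and -0.13 without LP 1.

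Other genes of the cycle, from lists of genes outside the 39, were lower in LP by less. Of 54 further replication genes (origin, polymerase, clamp loader and S phase repair factors), 52 were measured, and 43 were below 0 in LP minus L-DKO (49.9% of all genes), by a median of -0.30. Of 81 further mitosis genes 79 were measured, and 66 were below 0, by a median of -0.46. The median of the replication list was -0.50 without L-DKO 1 and -0.20 without either L-DKO 2 or LP 1, and that of the mitosis list was -0.19 without L-DKO 2 and -0.25 without LP 1. By limma 0 genes of either list were called in either direction, with 6 of 52 replication and 9 of 79 mitosis genes lower at an unadjusted p under 0.05 (4.94% of all genes). The 4 genes of each list with the largest difference among those without overlap are named here. In the mitosis list Ttk, the spindle checkpoint kinase Mps1, stood at 1.76 and 2.44 in the LP pair against 3.19 and 4.07 in the L-DKO pair, with 3.77 in the library labelled pTαKO and 3.45 in WT, and Ckap2 (-1.12 ± 0.62) and Shcbp1 (-1.08 ± 0.33) were the others beside Cenph. In the replication list these were Exo1, an exonuclease of DNA repair (-1.37 ± 0.50), Pole, the catalytic subunit of polymerase epsilon (-0.87 ± 0.28), Pole2 (-0.82 ± 0.43) and Brca1 (-0.69 ± 0.39). Cenph was listed at 2.28 and 0 in the LP pair against 2.33 and 7.86 in the L-DKO pair, and 0 in both the library labelled pTαKO and WT, so its value rested on L-DKO 2.

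Upstream regulators lay on both sides of 0. Of 28 measured G1 regulators, 22 were below 0 in LP minus L-DKO (49.9% of all genes), by a median of -0.43 (-0.25 without L-DKO 2), with 4 lower (4.94% of all genes) and 1 higher (6.15% of all genes) at an unadjusted p under 0.05 and 0 called by limma. Ccnd3, the main D-type cyclin of thymocytes, stood at 10.02 and 9.98 in the LP pair against 10.72 and 10.80 in the L-DKO pair, with 10.06 in the library labelled pTαKO and 10.32 in WT. The 3 libraries labelled as lacking pTα were lowest and L-DKO highest, with a difference of -0.76 ± 0.17 (limma adjusted p = 0.319). E2f2 stood at 7.05 and 7.08 in the LP pair against 7.63 and 7.67 in the L-DKO pair, with 7.10 in the library labelled pTαKO and 7.26 in WT, an order like that of Ccnd3. Mybl2, a partner of the complexes that drive G2/M genes, differed by -0.57 ± 0.27. In the other direction, Myc stood at 4.44 and 4.71 in the LP pair against 3.94 and 3.81 in the L-DKO pair, with 4.61 in the library labelled pTαKO and 3.72 in WT. It was higher in all 3 libraries labelled as lacking pTα, by 0.71 ± 0.22 between LP and L-DKO (limma adjusted p = 0.386). Ccnd1 (1.11 ± 0.60), Ccnd2 (0.92 ± 0.74) and E2f5 (0.76 ± 0.47) were also above 0, from low levels.

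Among 15 measured inhibitors of the cycle, of 17 listed, 10 were below 0 (49.9% of all genes) by a median of -0.13, with 2 lower (4.94% of all genes) and 1 higher (6.15% of all genes) at an unadjusted p under 0.05 and 0 called by limma. The 1 higher was Cdkn1a, the CDK inhibitor p21, listed at 2.08 and 3.13 in the LP pair against 1.02 and 0.96 in the L-DKO pair, 3.11 in the library labelled pTαKO and 1.78 in WT. LP and L-DKO did not overlap and differed by 1.62 ± 0.49 (limma adjusted p = 0.382). Its activator Trp53 differed by -0.49 ± 0.14 and Cdkn2d (p19) by -0.42 ± 0.13. Cdkn1c (p57) differed by -0.58 ± 0.37. Cdkn1b (p27), a CDK inhibitor of resting cells, stood at 7.03 and 7.15 in the LP pair against 7.19 and 6.998 in the L-DKO pair, with 6.90 in the library labelled pTαKO and 7.06 in WT, and its groups overlapped.

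**Figure D4:**
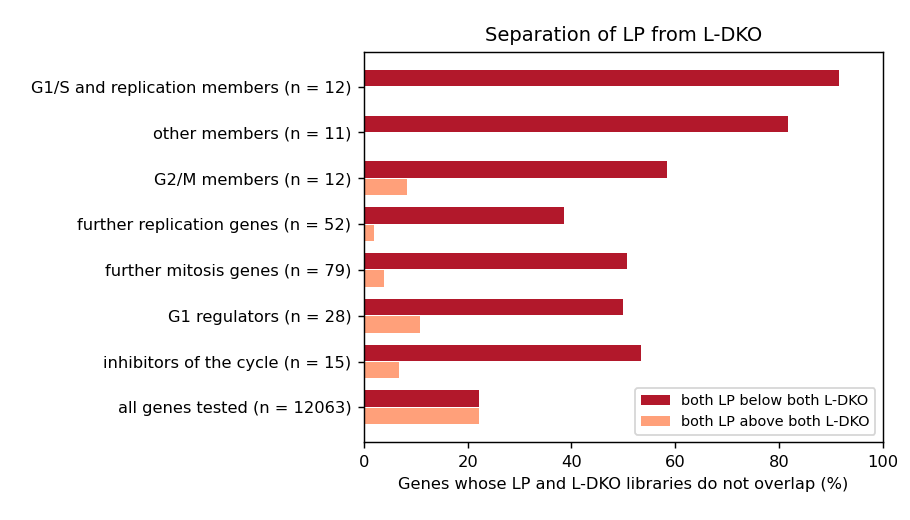
Percentage of the measured genes of each list in which both LP libraries lie below both L-DKO libraries (dark red) or above both (light red). For the G1/S members 11 of 12 genes are lower without overlap, for the G2/M members 7 of 12 are lower and 1 is higher, and over all 12063 genes the 2 bars are 22.2% and 22.3%.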

How the data were processed

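RNA-Seq libraries of sorted DP thymocytes were sequenced by the authors with paired-end reads. The submitters' processing notes name Trimmomatic 0.32 for trimming, TopHat2 2.0.9 for alignment to mm10 and Cufflinks 2.2.0 for quantification. Low quality genes were then removed by a rule that was not given. The deposited table gives log2 FPKM per the file headers, taken as log2(FPKM + 1) since no value was below 0. The authors' 2 columns of means and 3 of fold changes were not used. Of 7 labelled samples, 6 had a column, and pTαKO 1, left out by the submitters for low quality, was not analysed here.

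Where a symbol had several rows, the row with the highest mean FPKM was kept. Genes whose mean reached 0.5 FPKM were fitted with limma 3.58.1 in R 4.3.3 (1 mean per group, eBayes with trend), with Benjamini-Hochberg adjustment of p within a comparison. The fit had 2 residual degrees of freedom and 2.88 from the prior. Each replicate was a separate mouse, so the SE reflects 2 pairs of mice. The estimated differences were tested on simulated data. The members and lists were chosen with earlier results of these data known. All measured members are named, with values in every library for the largest and smallest LP minus L-DKO difference of each role and for members against their class. A few further genes (Mcm5, Gins1, Ccnb2, Cdk1 and Ube2c among them) and all promoters shown were chosen after their values were seen. Alternatives were another pseudocount (0.1), other filters, no trend, median centring, quantile normalization, rescaling without the 20 most abundant entries, summed rows, leaving out each library and a replicate block. Promoters and coordinates are from RefSeq, build GRCm38.p6.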

Additional observations from a re-analysis of the deposited data

Results flagged for a closer look

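Ccne2 had a second row in the table, which no comparison used because its mean FPKM was lower. It stood at 2.90 and 2.02 in the LP pair against 0.73 and 1.03 in the L-DKO pair, with 3.40 in the library labelled pTαKO and 0.45 in WT, so LP minus L-DKO was 1.57 and the 3 libraries labelled as lacking pTα were the 3 highest. The row kept put WT highest, and with both rows summed LP minus L-DKO was 0.52 for Ccne2. What tells the rows apart is not given in the sources used here.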

How the results depend on the processing

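No member was past the threshold in any tested comparison under any alternative run. Of 582 alternative values of medians and counts 579 moved by less than the spread between replicates or, for counts, by less than 1.5 times, and the 3 that moved further each left out 1 library. This yardstick was lenient. Leaving out 1 of 2 replicates can hardly move a median beyond the spread of those replicates. The other filters and no trend left the LP minus L-DKO medians of the members unchanged. The count of 579 is therefore not a measure of robustness. Medians that were small did change sign: without L-DKO 1, the L-DKO minus WT median was 0.06 over all members, and without L-DKO 2 the interaction median of the G2/M members was 0.05. Leaving out 1 library at a time, the LP minus L-DKO median ran from -0.76 to -0.42 over all members, and the number of members lower at an unadjusted p under 0.05 ran from 2 (without LP 1) to 16 (without L-DKO 1). The median of the further mitosis genes ran from -0.66 (without L-DKO 1) to -0.19 (without L-DKO 2). Of 898 alternative values of single members 4 changed sign. In LP minus L-DKO these were Ccne2 (-0.019 without L-DKO 1 to 0.45 without L-DKO 2), Birc5 (-0.66 without L-DKO 1 to 0.023 without L-DKO 2) and Cenpe (-0.73 without LP 2 to 0.12 without LP 1), and in LP minus pTαKO Aurkb (-0.27 without LP 2 to 0.12 without LP 1). Rescaling without the 20 most abundant entries gave 29 members lower without overlap and quantile normalization 26, against 27 in the main setting. The share over all genes was 22.2% in the main setting and is not given for the other 2. Over all genes tested, replicate numbers did not pair the libraries (correlation of deviations 0.035). Among the members, replicate 2 lay above replicate 1 in 30 of 35 for LP and in 29 of 35 for L-DKO. Pairing of the members alone was not tested. With a replicate block over the 4 LP and L-DKO libraries 19 members were lower at an unadjusted p under 0.05 (564 of all 12063 genes). Under that block 0 members were called, with a median of -0.62 over all members. With 2 libraries in LP and L-DKO and 1 each in pTαKO and WT, a member that was not called cannot be taken as equal between groups.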
